A study of Rattus norvegicus and Mus musculus with 22 samples.

Results

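The genes described here encode 4 families of enzymes that detoxify small molecules: the glutathione S-transferases (Gst), the aldehyde dehydrogenases (Aldh), the cytochrome P450 enzymes of families 1 to 4 (Cyp) and the UDP-glucuronosyltransferases (Ugt). Members were chosen by symbol alone, as every name in the whole-lung count tables that begins with Gst, Aldh, Cyp1 to Cyp4 or Ugt in its usual form. The rule found 115 members among 23932 symbols, 26 of them Gst, 18 Aldh, 61 Cyp and 10 Ugt. Of these, 65 reached a group mean of at least 0.5 CPM, the count as a rate that corrects for library size, in at least 1 group and are described: 17 Gst, 17 Aldh, 28 Cyp and 3 Ugt. The other 50 stayed below that level, and 16 of them had 0 counts in every lung library that lists them.

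P450 enzymes oxidise drugs, steroids, fatty acids and pollutants, and aldehyde dehydrogenases oxidise reactive aldehydes and make retinoic acid. Gst and Ugt enzymes then couple the products to glutathione or glucuronic acid, which makes them easier to export. In the lung much of this activity lies in the club cells of the small airways, and the endothelium and other cells add P450 enzymes that the aryl hydrocarbon receptor (AhR), a sensor of planar aromatic compounds, switches on. SU5416 (Sugen), the VEGF receptor inhibitor used in this model, is itself known to bind and activate the AhR.

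RNA was sequenced from whole lung of rats with Sugen-hypoxia pulmonary hypertension, in which SU5416 is combined with low oxygen. The genotypes were wild type (WT) and IL6KO, named for a knockout of the cytokine gene Il6, and each gave 3 libraries at day 7 and another 3 at day 56. A further 2 libraries of each genotype hold CD4-positive cells taken from lungs at day 7. The labels give every rat library the same Sugen-hypoxia treatment, so no comparison here has an untreated control. The labels give no strain, sex or age, do not describe the Il6 allele and do not state that the libraries of a group are from separate animals, so p-values measure the spread between these samples, which may in part be technical.

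Whole-lung libraries held 15011692 to 23590070 counts at day 7 and 14415060 to 22961232 at day 56, and the CD4 isolates held 11477533 to 12930732. Il6 itself was too low to check the labels: it had 5, 11 and 6 counts in the WT and 8, 5 and 2 in the IL6KO libraries of day 7, and 6, 6 and 5 against 0, 2 and 3 at day 56. Counts of Il6 were thus present in 5 of the 6 IL6KO libraries. The day 7 and day 56 tables list different symbols. 86 members stood in both, 15 only in the day 7 table and 14 only in the day 56 table, which leaves 53 described members measured on both days. The members just inside the level of 0.5 CPM were Aldh1b1 at 0.524, Cyp4f37 at 0.591 and Cyp4f37_2 at 0.722, and those just outside were Cyp4a1 at 0.463, Cyp2d5 at 0.454 and Cyp4a8 at 0.408, each as its highest group mean in CPM. CPM are not corrected for gene length, so levels are compared between libraries and not between genes. In whole tissue, fewer cells of a type and less RNA per cell cannot be told apart.

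At day 7, 7 detoxifying genes passed the edgeR test between the genotypes, each with a difference of more than 2-fold. That is 11.9% of the members tested, against 2.09% of all genes. With all 12 lung libraries in 1 fit, Gstt3 alone of the 7 still passed. Gstt3, Aldh1a7, Cyp2a1, Cyp2e1 and Cyp2j4 were higher in IL6KO lung, and Cyp4f5 and Cyp2b2 were lower. At day 56 no member passed the same test, although Gstt3, Aldh1a7 and Gstt1 again lay higher in all 3 IL6KO libraries than in any WT library. Groups that do not overlap, in either direction, were found for 14.5% of the members at day 56 and 16.9% of all genes. A far wider difference did not follow genotype: 1 IL6KO library of day 56 had almost no Cyp1a1, the member with the highest CPM in each of the other 11 lung libraries, and little Cyp1b1.

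The comparison of IL6KO with WT lung at day 7 asked which of these genes differ with the Il6 genotype early in the disease. Of the 59 members with enough counts to be tested, 5 were called higher and 2 lower at an adjusted p under 0.05 (edgeR, quasi-likelihood test, p-values adjusted by the Benjamini-Hochberg method across the 14368 genes in the test). Over all genes 0.933% were called higher and 1.16% lower, 2.09% in all, against 11.9% of the members. The test was limited to members that passed a filter on low counts, so this share does not describe all members. The 3 IL6KO libraries all lay above the 3 WT libraries for 13 members and all below for 5, 30.5% of the members tested, where 18.8% of all genes had groups that do not overlap. The median log2 fold change was 0.10 over the members and 0.00 over all genes. Single libraries took part in this: WT library 3 was the lowest of the 6 for 20 of the 59 members (33.9%, against 18.8% of all genes), and IL6KO library 3 was the highest for 26 (44.1%, against 20.5%).

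Among the glutathione transferases Gstt3, an enzyme of the theta class that works on small halogenated molecules, stood out. Its level was 31.9, 28.0 and 30.8 CPM in the WT libraries of day 7 and 79.0, 80.4 and 91.2 CPM in the IL6KO libraries. The groups were far apart, with every IL6KO library above 2 times any WT library. Gstt3 rose by 1.47 on the log2 scale in IL6KO (SE 0.086, n = 3 per group, adjusted p = 1.09e-04 by edgeR's quasi-likelihood test), and this call held under each alternative run at day 7.

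Gstt1, the neighbouring theta-class gene in the RefSeq GRCr8 gene table, had 12.5, 12.4 and 13.0 CPM in WT and 16.5, 16.3 and 17.1 CPM in IL6KO at day 7. The groups did not overlap, but the log2 difference of 0.40 (SE 0.095) did not pass the test (edgeR adjusted p = 0.0733). Gsta4, which conjugates the lipid peroxidation product 4-hydroxynonenal, had 119, 98.2 and 95.7 CPM in WT and 136, 137 and 126 CPM in IL6KO (log2 difference 0.35, SE 0.096, edgeR adjusted p = 0.117). Its groups were also apart. Gstt3 was the only 1 of 17 Gst genes tested at day 7 that passed, and the others had log2 differences from -0.27 to 0.66.

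Aldh1a7, a rodent paralog of the retinaldehyde dehydrogenase Aldh1a1, was the member with the widest rise among the called genes. It had 6.32, 5.08 and 5.25 CPM in WT and 19.1, 18.9 and 19.9 CPM in IL6KO. The IL6KO libraries lay close together and well above WT. The log2 fold change was 1.80 (SE 0.12, edgeR adjusted p = 2.67e-04). Aldh1a1 and Aldh1a7 are close copies, and how reads shared by such copies were counted is not given in the sources used here, so the level of each carries that uncertainty. Aldh1a1 itself ran from 294 to 338 CPM in WT and from 268 to 297 CPM in IL6KO, a log2 difference of -0.17 (edgeR adjusted p = 0.390). Of the 16 Aldh genes tested, Aldh1a7 alone passed.

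The P450 genes moved in both directions. Cyp2a1, a steroid hydroxylase, had 16.1, 15.7 and 15.3 CPM in WT and 35.4, 35.8 and 40.0 CPM in IL6KO. These groups were tight and far apart, and Cyp2a1 rose by 1.24 on the log2 scale (SE 0.087, edgeR adjusted p = 2.67e-04). Cyp2e1, which oxidises ethanol and small solvents, had 4.24, 4.99 and 3.59 CPM in WT and 10.2, 10.9 and 11.03 CPM in IL6KO. It rose by 1.31 (SE 0.15, edgeR adjusted p = 0.00393). Cyp2j4, from the subfamily that makes epoxides of arachidonic acid, had 5.04, 6.58 and 6.02 CPM in WT and 12.6, 12.9 and 11.1 CPM in IL6KO. It rose by 1.04 (SE 0.14, edgeR adjusted p = 0.00866), again with no overlap.

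Cyp4f5, of the subfamily that hydroxylates leukotrienes and other fatty acids at the omega end, went the other way. It had 15.7, 16.5 and 15.5 CPM in WT and 7.21, 6.90 and 7.21 CPM in IL6KO, with very little spread in either group. It fell by 1.16 on the log2 scale (SE 0.11, edgeR adjusted p = 0.00123). Its relative Cyp4f6 pointed up: 20.7, 13.8 and 19.7 CPM in WT against 24.7, 30.4 and 33.2 CPM in IL6KO. That log2 difference of 0.71 (SE 0.16) missed the threshold in edgeR (adjusted p = 0.0667) and passed it in DESeq2 (adjusted p = 0.00212), with a range of 0.00212 to 0.354 over the alternatives. Members of the Cyp4f subfamily are similar in sequence and reads can be divided among them, so opposite directions within it are uncertain.

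Cyp2b2, a P450 known for its response to phenobarbital, was counted 68, 123 and 11 times in the WT libraries and 4, 2 and 3 times in the IL6KO libraries, or 4.57, 5.29 and 0.705 CPM against 0.225, 0.123 and 0.157 CPM. WT library 3 was low and close to the IL6KO libraries. The fitted log2 fold change was -4.35 (SE 0.84, edgeR adjusted p = 0.0458), and it rests on few counts. The call was lost when any library other than WT 3 was left out (adjusted p from 0.0958 to 0.229), in limma-voom (0.159) and with no filter on low counts (0.0843). Its near-identical neighbour Cyp2b1, which the day 7 table alone lists, had 767, 757 and 700 CPM in WT and 817, 849 and 990 CPM in IL6KO. These groups did not overlap, and the log2 difference was 0.25 (SE 0.089, edgeR adjusted p = 0.221). Reads shared by the 2 genes could be assigned to either.

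**Figure D1:**
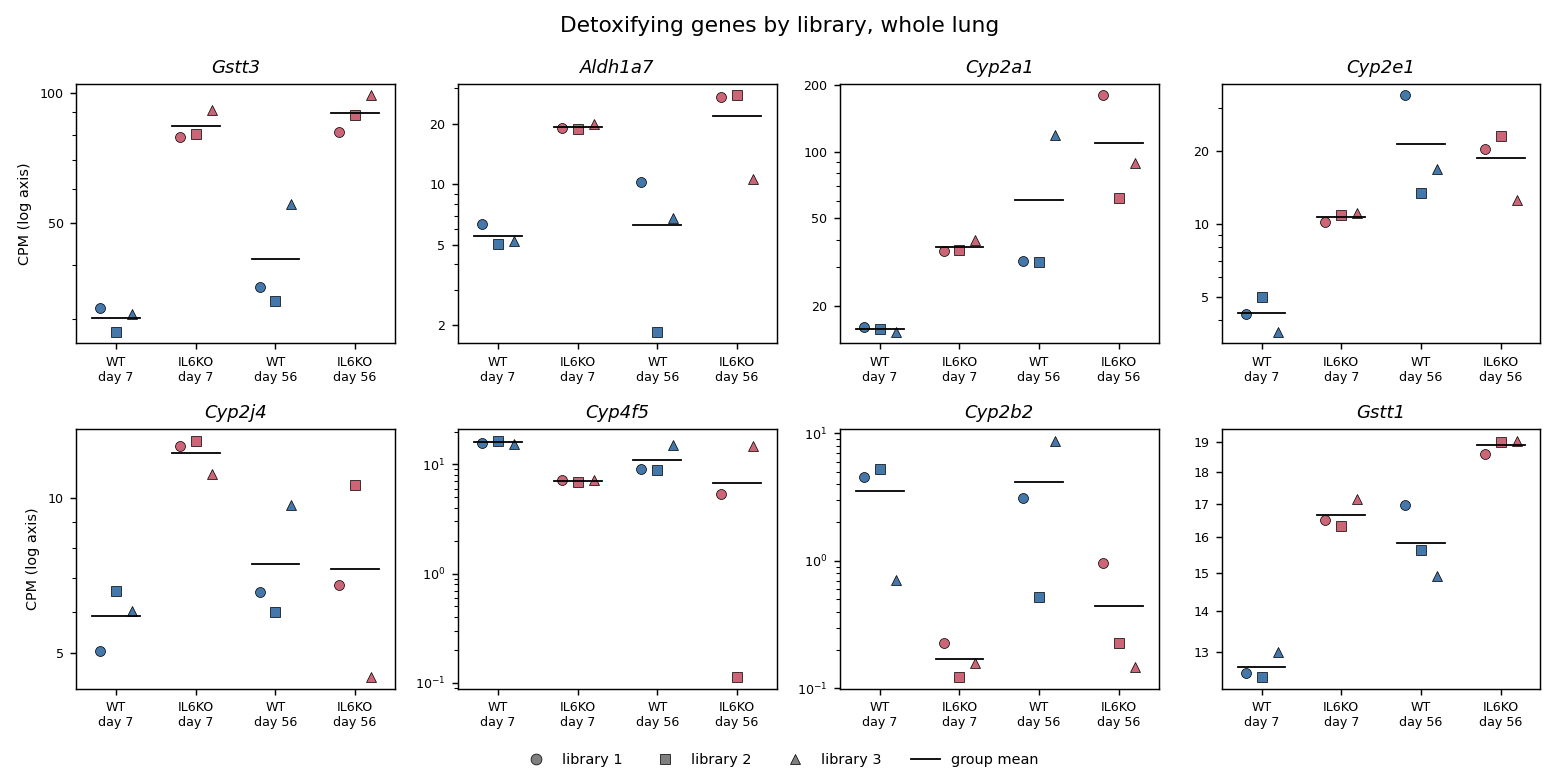
CPM on a log axis in each whole-lung library for the 7 members called at day 7 and for Gstt1, with 3 libraries per group (symbols) and the group mean (line). At day 7 the red IL6KO points lie apart from the blue WT points in every panel; at day 56 they do so for Gstt3, Aldh1a7 and Gstt1 and overlap for the other 5 genes.

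The spread within groups was smaller at day 7 than at day 56. The coefficient of variation of the members tested had a median of 9.75% in WT and 9.40% in IL6KO at day 7, against 8.40% and 9.14% over all genes. Cyp2b2 was 1 of 4 members over 50% in WT at day 7. At day 56 the median over the members tested was 19.6% in WT and 14.0% in IL6KO, against 12.9% and 9.69% over all genes. When all 12 lung libraries were fitted together with a single estimate of spread, Gstt3 alone of the 7 stayed called for day 7. The adjusted p of the other 6 ran from 0.141 to 0.756, with log2 fold changes of nearly the same size.

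Markers of club and other secretory airway cells were higher in IL6KO lung at day 7 as a sum, though not each of them. Their summed level, over 12 of 13 listed markers, was 5981 to 6506 CPM in WT and 7584 to 8683 CPM in IL6KO, so the groups did not overlap. Scgb3a2, a secretory protein of these cells, rose by 0.45 on the log2 scale (edgeR adjusted p = 0.0281). It was the only 1 of the 10 tested markers that was called. Scgb1a1, which makes up most of the sum, differed by 0.39 (edgeR adjusted p = 0.0558). Bpifb1 and Clic3 pointed down, with log2 differences of -0.23 and -0.13. Markers of hepatocytes, which express many of these enzymes, summed to 17.6 to 31.4 CPM in WT and 58.1 to 76.3 CPM in IL6KO over 9 of 10 genes. Serpina1 made up nearly all of it, and the defining hepatocyte gene Alb was at 0 to 0.202 CPM in all 6 libraries of day 7. Of the 13 marker lists, 3 others were also apart at day 7. The sum of B cell markers was higher in IL6KO (38.9 to 45.8 CPM in WT, 48.4 to 66.3 CPM in IL6KO). None of its 7 genes was called, and Pax5 and Blk pointed down, with log2 differences of -0.18 and -0.16. Smooth muscle markers were lower (2196 to 2438 CPM in WT, 1991 to 2064 CPM in IL6KO), where Actg2 and Cnn1 fell by 0.38 and 0.39 on the log2 scale (edgeR adjusted p = 0.0394 and 0.0476). The sum of fibroblast markers was lower by a narrow margin (6587 to 8340 CPM in WT, 5589 to 6580 CPM in IL6KO), but its genes were mixed. Col1a1, Col3a1, Lum and Inmt had log2 differences of -0.51, -0.25, -0.11 and -2.07. Pdgfra, Mfap4, Dcn and Tcf21 had 0.33, 0.30, 0.21 and 0.04. The other 8 lists overlapped, among them ciliated cells (457 to 615 CPM in WT, 569 to 639 CPM in IL6KO), and the part of any list in the members' differences was not tested.

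Several genes with large roles in the lung did not pass at day 7. Cyp4b1, a lung P450 that activates furans, had 237, 214 and 201 CPM in WT and 260, 241 and 313 CPM in IL6KO (log2 difference 0.32, edgeR adjusted p = 0.196). Cyp2f4, a club cell P450 that oxidises naphthalene, had 48.3, 48.9 and 37.2 CPM in WT and 48.4, 44.0 and 53.1 CPM in IL6KO, which overlap. Aldh3a1, an aldehyde dehydrogenase inducible through the AhR, had 27.3, 19.4 and 16.3 CPM in WT and 25.1, 31.9 and 31.4 CPM in IL6KO (log2 difference 0.49, edgeR adjusted p = 0.249). Of these 3 genes, Cyp4b1 alone had groups that did not overlap.

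Gstp1, the pi-class transferase of many epithelia, had 243, 257 and 261 CPM in WT and 214, 258 and 231 CPM in IL6KO at day 7. Gsta1, of the alpha class, had 149, 139 and 129 CPM against 146, 150 and 171 CPM. Gstm1, of the mu class, had 83.7, 83.6 and 73.6 CPM against 82.9, 78.1 and 89.9 CPM. The groups of all 3 transferases overlapped. Aldh2, the mitochondrial enzyme that clears acetaldehyde, had 408, 419 and 382 CPM in WT and 357, 375 and 452 CPM in IL6KO. Aldh1a2, which makes retinoic acid, had 44.3, 45.5 and 35.6 CPM against 39.9, 38.8 and 45.8 CPM. Both overlapped, whereas Aldh1a3, another retinoic acid enzyme, was apart at 58.7, 65.3 and 55.1 CPM against 68.1, 83.0 and 67.4 CPM without passing the test (log2 difference 0.28, edgeR adjusted p = 0.245). Ugt1a6, which glucuronidates phenols, had 147, 136 and 129 CPM against 130, 141 and 140 CPM. Ugt8, which makes galactosylceramide for myelin, was near the lower limit of the description at 0.384 to 0.605 CPM in WT and 0.470 to 0.740 CPM in IL6KO.

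The same comparison at day 56 gave 0 members called of 55 tested with edgeR's quasi-likelihood test, where 2 of all 14475 genes, or 0.0138%, were called. At an unadjusted p under 0.05 there were 6 members and 1649 genes. DESeq2 called 2 members, Cyp2f4 and Gstt3, and limma-voom called 0. Without WT library 3, edgeR called 3 members: Cyp2f4, Gstt3 and Aldh6a1, an enzyme of valine breakdown. The shares of all genes called under these alternatives are not given here, so these counts do not show whether members differ from other genes. Groups that do not overlap were found for 8 members, 6 higher and 2 lower in IL6KO, which is 14.5% of the members tested and 16.9% of all genes. The median log2 fold change was -0.03 over the members and -0.01 over all genes.

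Gstt3 at day 56 had 35.5, 33.0 and 55.4 CPM in WT and 81.3, 88.8 and 98.5 CPM in IL6KO. WT library 3 was higher than the other WT libraries and still below every IL6KO library. The log2 difference was 1.12 (SE 0.20, edgeR adjusted p = 0.331). Without WT library 3 it was 1.38 and passed the test (edgeR adjusted p = 0.00706), and over all alternatives the adjusted p ran from 9.99e-05 to 0.755. Aldh1a7 had 10.3, 1.85 and 6.77 CPM in WT and 27.2, 27.6 and 10.6 CPM in IL6KO. The lowest IL6KO library, number 3, was just above the highest WT library, and the log2 difference of 1.80 (SE 0.62) did not pass (edgeR adjusted p = 0.414).

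Cyp2f4 had 46.5, 48.5 and 53.6 CPM in WT and 77.5, 66.5 and 79.7 CPM in IL6KO at day 56. The groups were apart, which they were not at day 7, and the log2 difference was 0.59 (SE 0.10, edgeR adjusted p = 0.331). It passed without WT library 3 (adjusted p = 0.0226) and in DESeq2 (9.40e-04), with a range of 9.40e-04 to 0.755 over the alternatives. Ciliated cell markers summed to 626 to 649 CPM in WT and 752 to 914 CPM in IL6KO in these libraries, while those of club and secretory cells overlapped (9387 to 11824 CPM against 10608 to 12631 CPM). T cell markers were apart too, by a narrow margin (60.8 to 80.6 CPM in WT, 33.5 to 60.4 CPM in IL6KO). Whether any of these bears on Cyp2f4 was not tested. Aldh1a2 pointed down at 54.3, 40.5 and 35.4 CPM in WT against 33.2, 29.9 and 33.9 CPM in IL6KO (log2 difference -0.43, SE 0.16, edgeR adjusted p = 0.420). Cyp2b2 was counted 61, 12 and 128 times in WT libraries and 16, 4 and 3 times in IL6KO libraries, which overlap (log2 difference -3.21, SE 1.09, edgeR adjusted p = 0.414).

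The other genes that were called at day 7 had wide groups at day 56. Cyp2a1 had 32.0, 31.5 and 119 CPM in WT and 180, 61.8 and 88.5 CPM in IL6KO. Cyp2e1 had 33.8, 13.4 and 16.8 CPM against 20.4, 22.9 and 12.5 CPM. Cyp2j4 had 6.57, 5.99 and 9.72 CPM against 6.77, 10.6 and 4.49 CPM. All 3 overlapped between the genotypes. Cyp4f5 had 9.02, 8.84 and 15.1 CPM in WT and 5.39, 0.114 and 14.6 CPM in IL6KO, so that a single group spanned 2 counts in library 2 to 300 counts in library 3. Gstt1 had 17.0, 15.6 and 14.9 CPM in WT and 18.6, 19.0 and 19.1 CPM in IL6KO, which did not overlap (log2 difference 0.25, SE 0.10, edgeR adjusted p = 0.432).

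Among the remaining members of day 56, Cyp4b1 had 509, 457 and 271 CPM in WT and 339, 324 and 463 CPM in IL6KO. WT library 3 and IL6KO library 3 lay on opposite sides of their groups. Aldh1a1 had 356, 310 and 406 CPM against 352, 333 and 425 CPM. Aldh2 had 494, 516 and 411 CPM against 401, 405 and 419 CPM. Both aldehyde dehydrogenases overlapped between the genotypes. Aldh1a3 had 103, 81.8 and 59.5 CPM against 71.1, 88.6 and 74.6 CPM. Gstp1 had 203, 259 and 316 CPM against 206, 255 and 183 CPM. Gsta1 had 165, 162 and 243 CPM against 225, 167 and 194 CPM, and these 3 genes overlapped as well. Gstm1 had 97.5, 97.1 and 88.3 CPM against 87.0, 87.5 and 99.5 CPM. Ugt1a5, a glucuronosyltransferase of the Ugt1a group that the day 56 table alone lists, had 75.8, 64.3 and 97.9 CPM against 77.8, 89.9 and 47.3 CPM. Ugt8 had 0.968, 0.690 and 0.753 CPM against 0.599, 0.454 and 1.02 CPM. None of the 3 separated the genotypes.

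**Figure D2:**
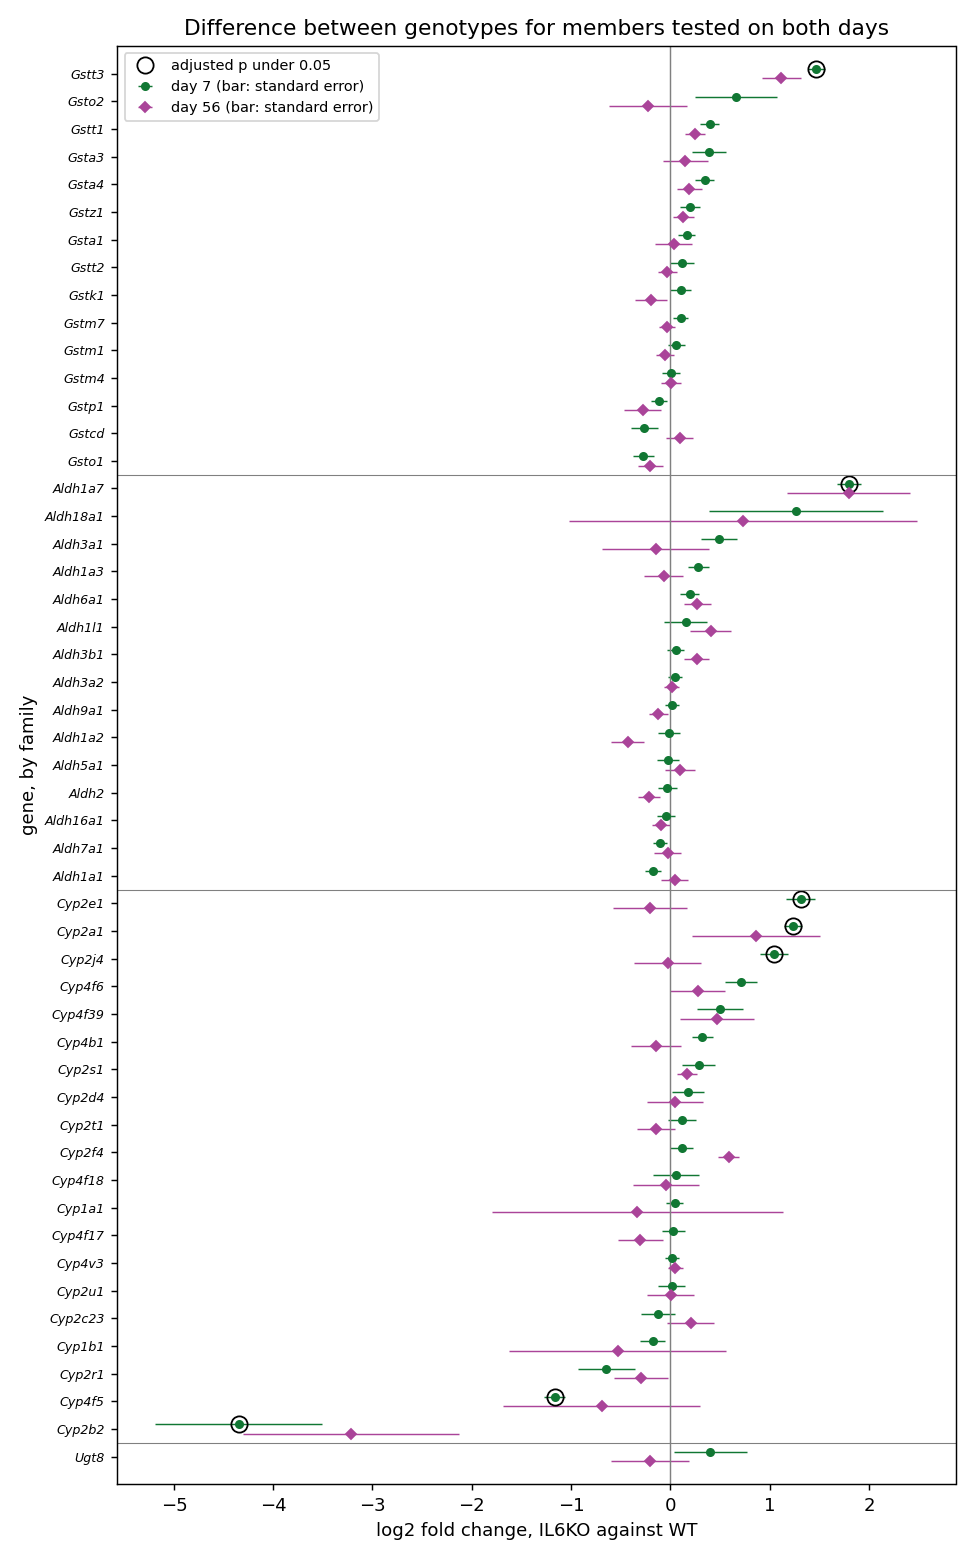
Log2 fold change of IL6KO against WT with its standard error (bar) for the 51 members tested on both days, grouped by family and ordered by the day 7 value, with day 7 as circles and day 56 as diamonds. Ringed points passed an adjusted p under 0.05, which 7 did at day 7 and 0 at day 56; the widest day 56 bars are those of Aldh18a1, Cyp1a1, Cyp1b1, Cyp2b2 and Cyp4f5.

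Of the 51 members tested on both days, 4 had groups apart in the same direction on both: Gstt3, Gstt1 and Aldh1a7 were higher in IL6KO and Cyp2r1, a vitamin D 25-hydroxylase, was lower. That is 7.84% of the members and 3.55% of the 13368 genes tested on both days. Cyp2r1 had 1.48, 1.63 and 1.22 CPM in WT and 0.901, 1.17 and 0.732 CPM in IL6KO at day 7, and 1.07, 1.16 and 0.958 CPM against 0.898, 0.795 and 0.926 CPM at day 56. Neither difference passed the test (edgeR adjusted p = 0.348 and 0.649).

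Whether the genotype difference itself changed between the days was tested with the interaction term over the 12 lung libraries. edgeR's quasi-likelihood test called 0 of 52 members and 0 of 13869 genes (0%), with 3 members and 1021 genes at an unadjusted p under 0.05. DESeq2 called 0 members and 48 genes, and limma-voom called 0 members. The members with the smallest p were Cyp2e1 (interaction -1.51 on the log2 scale, SE 0.46, edgeR adjusted p = 0.522), Cyp2f4 (0.48, SE 0.17, adjusted p = 0.587), Cyp2j4 (-1.07, SE 0.38, adjusted p = 0.588), Gstcd (0.36, SE 0.18, adjusted p = 0.671) and Aldh1a2 (-0.42, SE 0.21, adjusted p = 0.682). For Aldh1a7 the interaction was 0.00 (SE 0.60). The calls at day 7 that were missed at day 56 are therefore not shown to differ between the days.

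IL6KO library 3 of day 56 stood apart, most of all in 2 P450 genes that the AhR controls. Cyp1a1, the classic P450 target of the AhR, had 1318, 1139 and 1844 CPM in the WT libraries of day 56. The IL6KO libraries 1 and 2 had 1808 and 1610.2 CPM, and library 3 had 4.0 CPM from 82 counts. At day 7 all 6 libraries lay between 2235 and 2656 CPM. Cyp1b1, the second P450 of this family, had 648, 641 and 1263 CPM in WT and 698, 1049 and 23.2 CPM in IL6KO at day 56, against 792 to 1097 CPM in the 6 libraries of day 7. The genotype comparison of both genes at day 56 therefore turns on this library: the log2 difference was -0.33 for Cyp1a1 and -0.53 for Cyp1b1 with all libraries (SE 1.46 and 1.09), and 0.25 and 0.04 without it (edgeR adjusted p = 0.79 and 0.983). At day 7 Cyp1a1 differed by 0.04 (SE 0.086) and Cyp1b1 by -0.18 (SE 0.12), and neither passed the test (edgeR adjusted p = 0.893 and 0.593).

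Ordered by how far the library lay below the lowest of the other 5 libraries of day 56, Cyp1a1 was rank 1 and Cyp1b1 rank 2 of 14475 genes. The ratio, on CPM plus 0.5, was 253 for Cyp1a1 and 27.1 for Cyp1b1. This measure was chosen after the values were seen and carries no test. Ranks 3 to 5 were Stk32b, LOC100911572 and Crnkl1_2, with ratios of 14.4, 6.61 and 6.20, and ranks 7 and 8 were Ryr3 and Slc4a11. None of these 5 is on the list of AhR pathway genes. 36 genes were more than 2-fold below the lowest other library, and 3 of them were members: Cyp1a1, Cyp1b1 and Aldh3a1. Aldh3a1 was rank 17, at 3.80 CPM against 10.3 to 20.1 CPM in the other libraries.

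Genes of the AhR pathway outside the 4 families were low in the same library. Ahrr, the repressor that the receptor induces to limit itself, had 13.3 CPM there and 72.0 to 125 CPM in the other 5 libraries of day 56, which placed it at rank 6. Nqo1, a quinone reductase that AhR and Nrf2 both induce, had 82.9 CPM against 187 to 381 CPM and was rank 23. Tiparp, a further AhR target, had 27.2 CPM against 35.3 to 94.5 CPM. The receptor gene Ahr went the other way, with 251 CPM in library 3 and 117 to 207 CPM in the others, and its partner Arnt had 61.2 CPM against 41.7 to 57.1 CPM. No label sets this library apart from the others of its group. Cyp1a1 answers to AhR ligands such as SU5416. Whether this library had the labelled exposure was not tested, and there was no untreated lung to compare it with. Each IL6KO value of day 56 from library 3 is to be read with that limit.

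**Figure D3:**
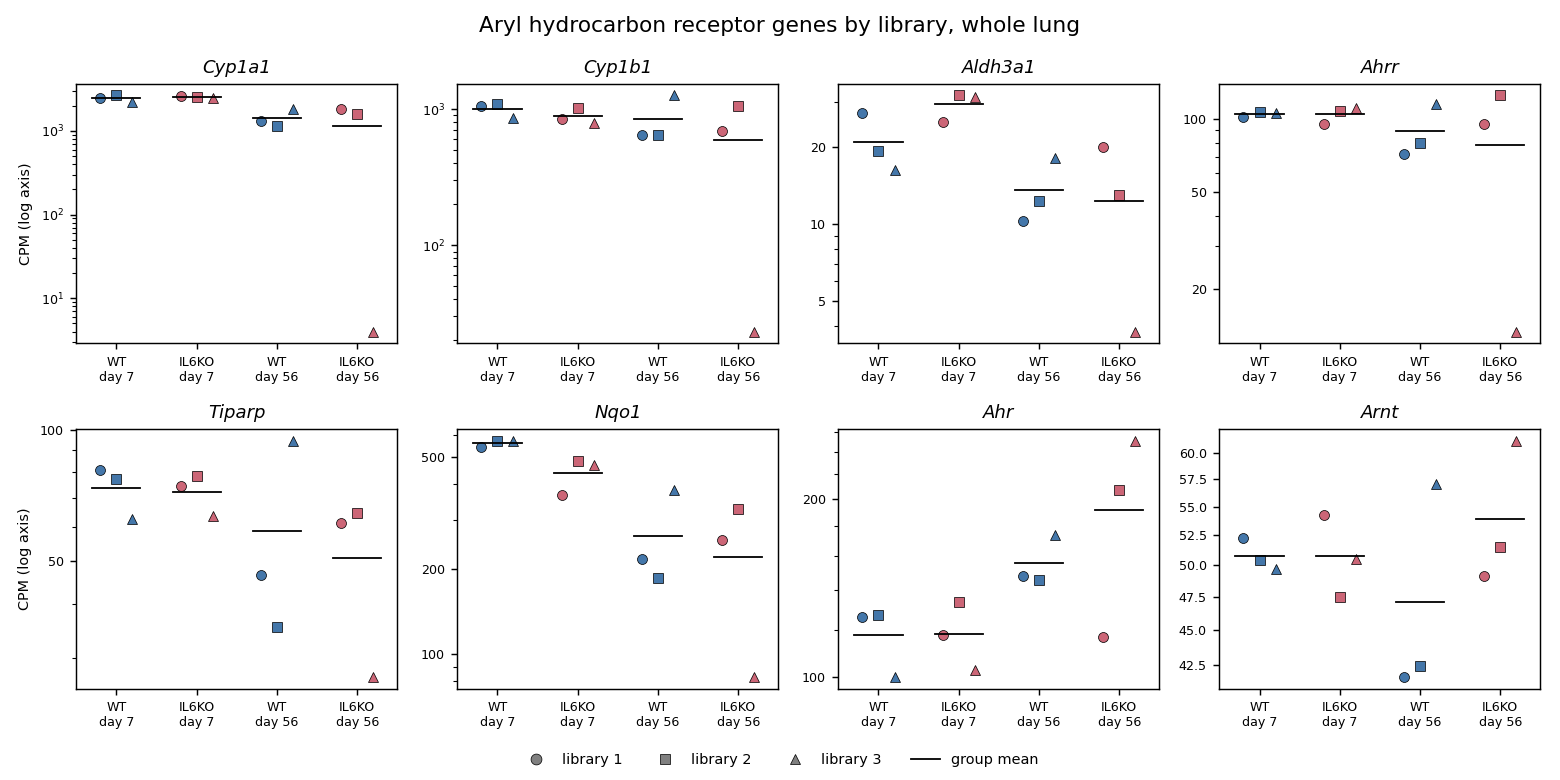
CPM on a log axis in each whole-lung library for Cyp1a1, Cyp1b1, Aldh3a1 and 5 genes of the AhR pathway, with 3 libraries per group (symbols) and the group mean (line). The red triangle of IL6KO at day 56 is the lowest of the 12 points for Cyp1a1, Cyp1b1, Aldh3a1, Ahrr, Tiparp and Nqo1 and the highest for Ahr and Arnt.

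The promoters of Cyp1b1 and Ahrr are shown because these genes were low together in that library, and that of Gstt3 because it is the member with the smallest p between the genotypes at day 7. They come from RefSeq's annotation of the rat genome build GRCr8 and run 5′ to 3′ on the plus strand from 250 bases before the start of the gene to 50 bases after it. Capitals mark matches to GCGTG, the core of the xenobiotic response element that the AhR binds, searched on both strands (CACGC is the same core on the minus strand). Cyp1b1 lies at chr6:21094315-21094614 and holds 2 matches, Ahrr lies at chr1:30821969-30822268 and holds 3, and Gstt3 lies at chr20:12874368-12874667 and holds 0.
Cyp1b1: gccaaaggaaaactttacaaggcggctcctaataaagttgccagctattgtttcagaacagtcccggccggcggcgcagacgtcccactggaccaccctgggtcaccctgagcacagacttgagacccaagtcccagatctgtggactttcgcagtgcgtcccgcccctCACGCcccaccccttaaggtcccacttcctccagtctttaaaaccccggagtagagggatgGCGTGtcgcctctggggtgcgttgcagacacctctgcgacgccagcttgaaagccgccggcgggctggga
Ahrr: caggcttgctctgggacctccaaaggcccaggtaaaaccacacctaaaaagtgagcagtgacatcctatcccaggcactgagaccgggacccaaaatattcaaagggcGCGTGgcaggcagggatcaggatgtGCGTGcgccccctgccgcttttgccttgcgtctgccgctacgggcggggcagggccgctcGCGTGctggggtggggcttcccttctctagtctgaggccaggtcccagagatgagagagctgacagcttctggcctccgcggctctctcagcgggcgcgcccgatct
Gstt3: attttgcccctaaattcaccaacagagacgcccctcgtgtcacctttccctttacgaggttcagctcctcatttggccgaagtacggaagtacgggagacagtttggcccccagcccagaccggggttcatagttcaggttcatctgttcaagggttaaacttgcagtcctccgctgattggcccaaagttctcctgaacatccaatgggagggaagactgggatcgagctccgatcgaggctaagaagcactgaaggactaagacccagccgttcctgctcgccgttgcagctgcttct

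By symbol, 87 of the 115 members and 52 of the 65 described members had an entry in this table, some with more than 1 start. The core was present in 24 of the 57 promoters of described members (42.1%) and in 29.7% of all 33469 promoters. The core of the antioxidant response element that Nrf2 binds, TGACNNNGC on either strand, was present in 14 of the 57 (24.6%) and in 12.1% of all. A match of so few letters is a description of the sequence and not a binding site. No promoter of Cyp1a1 or Aldh1a7 was used here.

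Cyp1a1 and Cyp1b1 together held most of the summed CPM of all P450 members in 11 of the 12 lung libraries. These are shares of CPM, which are not corrected for gene length. At day 7, where the sum also holds Cyp2b1, their share was 65.9% to 74.4%. At day 56 it was 67.7% to 80.5% in 5 libraries and 2.78% in IL6KO library 3. The summed P450 level there was 978 CPM, against 2630 to 3859 CPM in the other 5 libraries of that day. Without Cyp1a1 and Cyp1b1 it was 951 CPM, against 752 to 927 CPM in the others. The Gst sum in library 3 was 973 CPM and that of the other 5 libraries 913 to 1118 CPM, while the Aldh sum was 1442 CPM against 1404 to 1472 CPM. The Ugt sum, nearly all of it Ugt1a5, was 48.6 CPM against 65.4 to 99.0 CPM, so the P450 and Ugt sums were lowest in this library and the Gst and Aldh sums were not. Of the 55 members tested at day 56, 14 (25.5%) had their lowest value in this library, where 19.4% of all genes did.

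**Figure D4:**
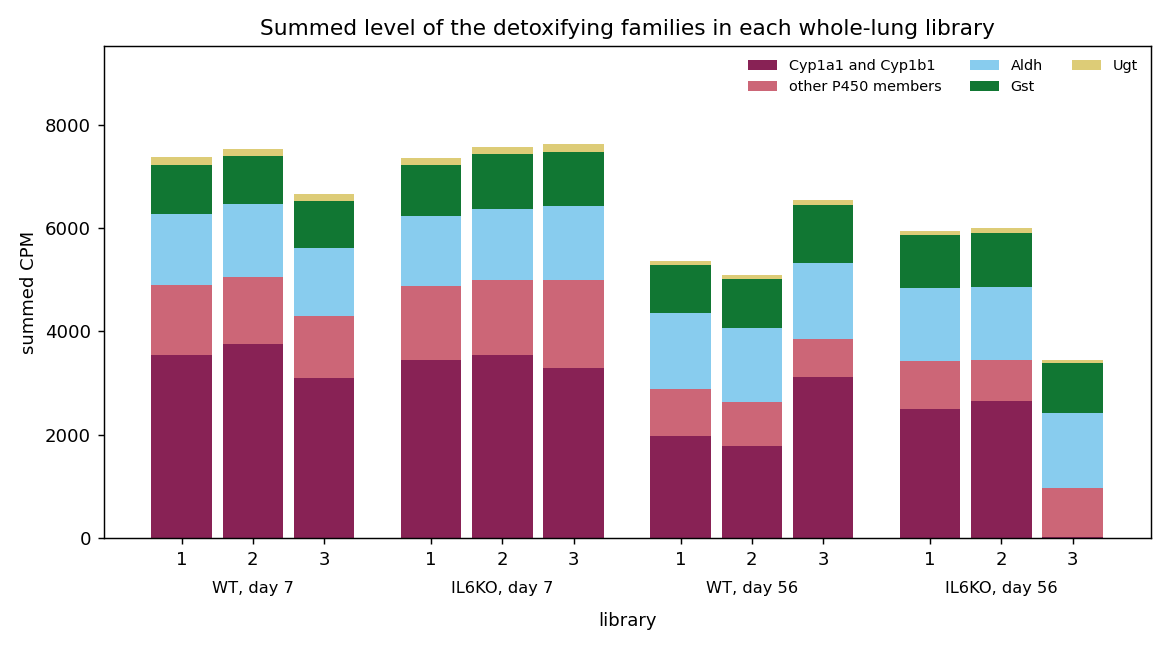
Summed CPM of all members of each family in the 12 whole-lung libraries, stacked from 0, with the P450 members split into Cyp1a1 plus Cyp1b1 and the rest. IL6KO library 3 of day 56 totals 3442 CPM against 5083 to 6540 CPM in the other 5 libraries of that day, and the layer of Cyp1a1 plus Cyp1b1 accounts for most of the gap; sums are to be compared within a day, since the tables list different members such as Cyp2b1.

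Aldh18a1, an enzyme of proline synthesis, varied within every group, and its groups overlapped in each comparison. It had 2.02, 12.2 and 12.8 CPM in WT and 31.4, 6.54 and 27.9 CPM in IL6KO at day 7, and 0.153, 0.0431 and 11.6 CPM against 0.0599, 9.77 and 8.68 CPM at day 56. The lowest of these is 1 count and the highest 558 counts. It was the single member with a coefficient of variation over 50% in all 4 groups.

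The comparison of day 56 with day 7 within each genotype followed the members along the course of the disease. Days were counted in separate tables, so day and table cannot be told apart. In WT lung 6 of 52 members were called higher at day 56 and 3 lower (edgeR's quasi-likelihood test), or 17.3%. Over all genes 6.18% were called higher and 8.53% lower, 14.7% in all. In IL6KO lung 4 members were called higher and 1 lower, or 9.62%. Over all genes these shares were 3.09% and 5.31%, 8.39% in all. The share of members called was thus near that of all genes in both genotypes. The counts depend on single libraries. The 9 calls in WT became 16 without WT library 3 of day 56 and 5 or 4 without WT library 2 or 3 of day 7. The 5 calls in IL6KO became 9 or 8 without WT library 3 or 1 of day 56, which share in the estimate of spread, and 3 without IL6KO library 2 of day 7. The shares of all genes called without these libraries are not given here.

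Cyp2e1 rose most in WT lung, from 4.27 ± 0.70 CPM at day 7 to 21.3 ± 10.96 CPM at day 56 (SD, n = 3 per group, log2 fold change 2.31, edgeR adjusted p = 7.65e-04). Cyp2a1 rose from 15.7 ± 0.41 to 60.7 ± 50.2 CPM (log2 1.94, edgeR adjusted p = 0.0482), a call that was lost when any of 8 of the 12 libraries was left out. Without WT library 3 of day 56, at 119 CPM, the log2 difference of Cyp2a1 was 1.03 (edgeR adjusted p = 0.0729). Gsta3, an alpha-class transferase, rose by 1.17 on the log2 scale in WT (edgeR adjusted p = 0.00199) and by 0.93 in IL6KO (adjusted p = 0.0102). Its level was 2.76 to 3.27 CPM in WT and 3.76 to 4.05 CPM in IL6KO at day 7, and 5.56 to 9.10 CPM and 6.92 to 8.50 CPM at day 56. Cyp2s1, a P450 of extrahepatic epithelia, rose by 0.71 in WT (edgeR adjusted p = 0.00763) and by 0.60 in IL6KO (adjusted p = 0.0274). Cyp4b1 rose by 0.93 in WT (edgeR adjusted p = 0.0120), and Gstt1 by 0.33 (adjusted p = 0.0255). Cyp4b1 lost its call without WT library 3 of day 7 or WT library 1 of day 56 (edgeR adjusted p = 0.0538 and 0.051). Gstt1 lost it without any WT library of day 7 or without WT library 1 or 2 of day 56 (edgeR adjusted p from 0.0509 to 0.108). Cyp2s1 in IL6KO lost it without IL6KO library 1 or 2 of either day (edgeR adjusted p from 0.0599 to 0.124). In IL6KO lung Cyp4b1 differed by 0.47 (edgeR adjusted p = 0.216) and Cyp2e1 by 0.80 (adjusted p = 0.16). Cyp2a1 differed by 1.57 there (edgeR adjusted p = 0.123) and Gstt1 by 0.18 (adjusted p = 0.240).

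In IL6KO lung Cyp2f4 rose by 0.62 on the log2 scale (edgeR adjusted p = 0.00570), from 48.5 ± 4.6 CPM to 74.6 ± 7.1 CPM. In WT it differed by 0.14 (edgeR adjusted p = 0.460). Cyp2c23, an arachidonic acid epoxygenase, rose by 1.00 in IL6KO (edgeR adjusted p = 0.00963). In WT it differed by 0.67 and just missed the threshold (edgeR adjusted p = 0.0501). Aldh7a1, an enzyme of lysine breakdown, fell by 0.56 on the log2 scale in WT (edgeR adjusted p = 0.00489) and fell by 0.48 in IL6KO (adjusted p = 0.0174). The IL6KO call of Aldh7a1 was lost without IL6KO library 2 of day 7 or 3 of day 56 (edgeR adjusted p = 0.0708 and 0.0801). In WT lung Cyp4f39, a fatty acid hydroxylase, fell by 1.03 (edgeR adjusted p = 0.0478) and Aldh1l2, the mitochondrial 10-formyltetrahydrofolate dehydrogenase, fell by 1.74 (adjusted p = 0.0480). Both of the latter were near the threshold and lost the call when any of 10 of the 12 libraries was left out. In IL6KO lung these 2 genes differed by similar amounts without passing. The log2 differences were -1.05 for Cyp4f39 and -1.99 for Aldh1l2 (edgeR adjusted p = 0.0519 and 0.0597).

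Markers of other cells differed between the days too. Club and secretory markers summed to 5981 to 8683 CPM over the 6 libraries of day 7 and 9387 to 12631 CPM over those of day 56, carried by Scgb1a1, which rose by 0.93 on the log2 scale in WT (edgeR adjusted p = 8.97e-05) and by 0.64 in IL6KO (adjusted p = 0.00232). Scgb3a2 fell by 0.94 in WT and fell by 0.86 in IL6KO (edgeR adjusted p = 7.55e-04 and 0.00193). Over the genes that both tables list, 7 fibroblast markers summed to 5229 to 8037 CPM at day 7 and 2295 to 2873 CPM at day 56, and 7 red cell markers to 2964 to 7746 CPM and 259 to 2511 CPM. Their part in the day differences of the members was not tested.

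Of 115 tested genes in 7 lists around these families, 5 were called between the genotypes at day 7 (4.35%, against 2.09% of all genes). Of 37 tested genes of Nrf2 and glutathione metabolism, 1 was called at day 7: Hmox1, heme oxygenase, with 67.9, 89.8 and 108 CPM in WT and 54.3, 51.3 and 57.1 CPM in IL6KO. The groups were apart and Hmox1 fell by 0.71 on the log2 scale (SE 0.14, edgeR adjusted p = 0.0432), a call that limma-voom did not make. Of 23 other oxidising and hydrolysing enzymes 2 were called, both higher. Aox1, aldehyde oxidase, had 37.5, 31.3 and 32.3 CPM in WT and 59.1, 59.2 and 66.9 CPM in IL6KO, and rose by 0.87 (SE 0.093, edgeR adjusted p = 0.00255). Fmo1, a flavin monooxygenase, had 64.4, 53.0 and 45.7 CPM in WT and 88.1, 77.2 and 86.6 CPM in IL6KO, and rose by 0.63 (SE 0.12, edgeR adjusted p = 0.0365).

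Of 18 other conjugating enzymes and transporters, 1 was called at day 7. Inmt, an N-methyltransferase of indoles that is also a fibroblast marker in lung, had 29.9, 43.4 and 26.0 CPM in WT and 6.70, 11.3 and 5.90 CPM in IL6KO and fell by 2.07 on the log2 scale (SE 0.29, edgeR adjusted p = 0.0200). Of 8 P450 genes outside families 1 to 4, Cyp51, the lanosterol demethylase of sterol synthesis, fell by 0.51 (edgeR adjusted p = 0.0398), and limma-voom called none of these 8. None of the 8 AhR pathway genes, 12 xenobiotic receptors and partners or 11 retinoid genes was called with edgeR at day 7, where 1, 2 and 2 had an unadjusted p under 0.05. DESeq2 called 1, 0 and 0 of them and limma-voom 0, 0 and 0.

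At day 56, 1 of 119 tested genes of these lists was called between the genotypes (0.84%, against 0.0138% of all genes). Ephx2, the soluble epoxide hydrolase that turns over P450 epoxides of fatty acids, fell by 2.99 on the log2 scale in IL6KO (SE 0.14, edgeR adjusted p = 0.00142). At day 7 its difference was -2.22 (SE 0.82, edgeR adjusted p = 0.316). Between the days 19 of 114 tested genes of these lists were called in WT lung (16.7%, against 14.7% of all genes). In IL6KO lung 13 were called (11.4%, against 8.39%). The WT calls went both ways. Genes of Nrf2 and glutathione metabolism had 1 higher and 3 lower. The other oxidising and hydrolysing enzymes had 4 higher and 2 lower, and the retinoid genes 3 higher and 2 lower. Among the genes higher in WT at day 56, Fmo1 rose by 1.38 and Fmo2 by 1.37 (edgeR adjusted p = 0.00108 and 0.0118). Lrat, which stores retinol as esters, rose by 1.46 (edgeR adjusted p = 0.00201).

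The CD4 isolates of day 7 lung give the level of each member in a fraction enriched for CD4-positive cells. These libraries were scaled separately, so the levels are set side by side with no test. Of 61 described members listed in the day 7 tables, 45 were lower in all 4 CD4 libraries than in any of the 6 whole-lung libraries, 13 overlapped and 3 were higher. The same shares over all genes were not computed, so these counts do not show whether the members differ from other genes. Cyp2b1 had 1.47 to 4.02 CPM in the isolates and 700 to 990 CPM in lung, Cyp1a1 had 9.44 to 35.3 CPM and 2235 to 2656 CPM, and Aldh3a1 had 0 to 0.386 CPM and 16.3 to 31.9 CPM. The 3 higher members were P450 genes. Cyp4f18, a leukotriene hydroxylase of white blood cells, had 20.7 to 27.2 CPM against 1.73 to 2.48 CPM in lung. Cyp2d3 had 8.31 to 13.4 CPM against 2.47 to 3.45 CPM, and Cyp4f17 had 14.9 to 17.3 CPM against 8.34 to 9.49 CPM.

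Of the 7 members called between the genotypes in day 7 lung, Cyp4f5 alone was found in the isolates at a level that overlapped the lung, 14.0 and 16.4 CPM in WT and 15.7 and 13.4 CPM in IL6KO. Gstt3 had 1.22 and 1.39 CPM in WT and 1.24 and 1.21 CPM in IL6KO, without the difference seen in whole lung. Aldh1a7, Cyp2e1 and Cyp2j4 were each below 0.5 CPM in every isolate, and Cyp2b2 had 0 counts. Cyp2a1, higher in IL6KO lung, had 1.75 and 4.02 CPM in the WT isolates and 1.08 and 0.347 CPM in the IL6KO isolates. Cyp1a1 had 35.3 and 28.9 CPM in the WT isolates and 9.44 and 9.80 CPM in the IL6KO isolates, and Cyp1b1 had 18.4 and 12.3 CPM against 5.55 and 5.81 CPM. With 2 libraries per genotype these are given as values only, and the part of other lung cells left in the isolates was not tested.

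**Figure D5:**
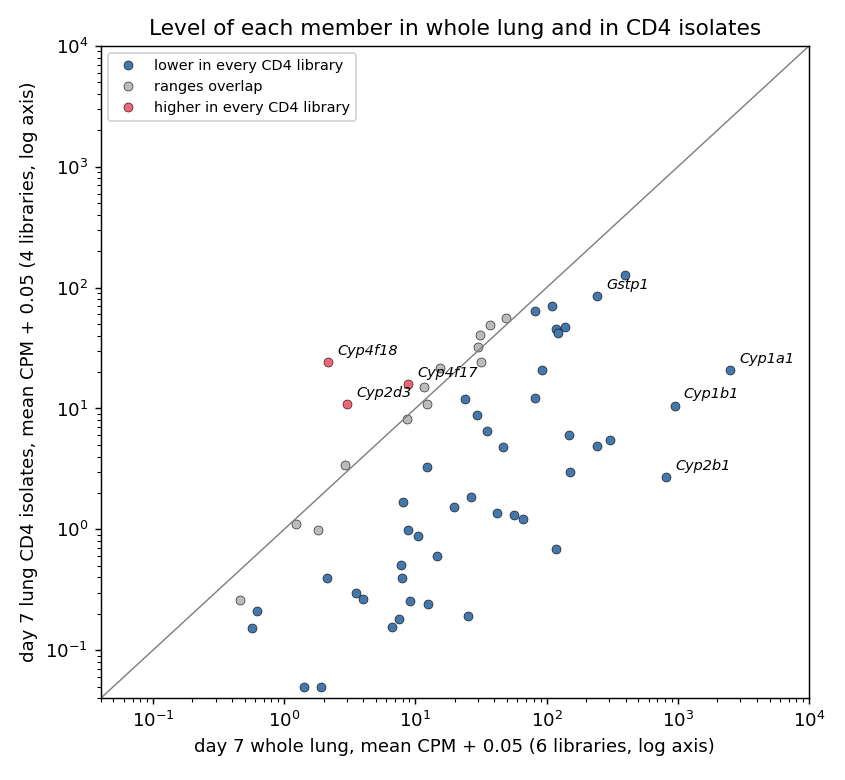
Mean CPM plus 0.05 of 61 members in the 6 whole-lung libraries of day 7 (x, log axis) and in the 4 lung CD4 isolates of day 7 (y, log axis), with the line of equal level. 45 members lie below the line with ranges apart (blue), 13 overlap (grey), and Cyp4f18, Cyp2d3 and Cyp4f17 lie above it (red).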

How the data were processed

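The authors deposited raw counts per gene, 1 column per library with replicates not pooled, as total counts per the file headers. The submitters' processing notes name GRCm38, a mouse build, for the rat samples too. No aligner, counter or annotation is named there. Lung RNA was purified by Trizol and columns, treated with DNase and made into Illumina libraries, per the labels' protocols. All columns used matched a sample by name, with 0 unmatched.

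Members were matched by symbol. The members, the gene lists and the tests were chosen with earlier results of these data known. Low genes were removed by filterByExpr and libraries scaled by TMM. The robust quasi-likelihood model of edgeR 4.0.16 was run in R 4.3.3, each day on its own 6 libraries and the interaction and day comparisons on all 12 with the genes listed on both days. p-values were adjusted by Benjamini-Hochberg over all genes tested, and an adjusted p under 0.05 was a call. Positive log2 fold changes are higher in IL6KO or at day 56. Printed CPM are counts over column total times TMM factor of the 12-library fit. SE is that of the log2 fold change, derived as its absolute value over the square root of the quasi-likelihood F statistic.

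Named with every library's value were members called in a genotype comparison or the interaction, the 5 with the smallest p where fewer than 5 were called, the 2 members with the highest mean CPM per family, and members fixed for their role. Gsta4, Cyp4f6, Gstt1, Cyp2r1, Aldh6a1, Aldh18a1, the 3 members higher in the CD4 isolates and the AhR genes of the library that stands apart were added after their values were seen. For the day comparisons up to 5 called members per direction were named, and for each list up to 2 called genes. Ugt1a1, fixed for its role, was not analysed here. Rows with a numbered suffix, such as Cyp4f37_2, were kept as listed.

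Alternatives were DESeq2 1.42.0, limma-voom (limma 3.58.1), scaling by RLE, testing without the low-count filter, a fold limit of 1 on the log2 scale added to the p, a block for the replicate number, all 12 libraries in 1 fit, and leaving out each library. Leaving out both day 56 libraries numbered 3 was added after seeing the data. Each fit was tested on simulated data. Promoters are RefSeq sequences of GRCr8, matched by symbol.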

Additional observations from a re-analysis of the deposited data

How the results depend on the processing

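The 7 calls at day 7 were 6 to 7 with any library left out and 6 to 9 under the other alternatives, except 1 with all 12 libraries in 1 fit. At day 56 the count of 0 became 2 in DESeq2, 1 with all 12 libraries in 1 fit, 1 without both libraries numbered 3, and 0 to 3 with any library left out, 3 without WT library 3. The interaction stayed at 0 except for 1 member, Cyp4b1, without both libraries numbered 3. In WT the 9 calls between the days became 15 in DESeq2, 5 at a log2 fold change of at least 1, 19 without both libraries numbered 3 and 4 to 16 with any library left out. In IL6KO the 5 calls became 10 in DESeq2, 1 at a log2 fold change of at least 1 and 3 to 9 with any library left out. Libraries with the same number did not deviate together (correlations of 0.0559, 0.078 and 0.255 at day 7 and -0.161, -0.0749 and -0.0275 at day 56), so the numbers were not treated as pairs. With the replicate block the counts were 9 at day 7, 0 at day 56, 0 for the interaction, 5 between the days in WT and 5 in IL6KO. All these counts are of members alone. Without the shares of all genes under each alternative, they do not show whether members differ from other genes. The day 56 difference of Cyp1a1 ran from -0.83 to 0.25 and that of Cyp1b1 from -1.24 to 0.036 with any library left out, and they were 0.47 and 0.43 without both libraries numbered 3. Both turned positive wherever IL6KO library 3 was left out; other causes of the changes above were not tested. Of 541 recomputed values over 35 member results, 466 kept direction and side of the threshold, 64 lost the call, 7 gained it and 4 changed direction. The 65 members described became 61 at a limit of 1 CPM and 78 at 0.1 CPM. Members near 0.5 CPM rest on few counts.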
